A study of Mus musculus with 14 samples.

Results

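H3AcK27 was profiled by ChIP-seq in mouse 3T3-L1 adipocytes left untreated (control) or exposed to TNFα for 1 h, and the comparison described here is between the region lists of those 2 libraries. The control list held 52321 regions and the TNFα list 49754, together 102075 of the 243429 regions and peaks in the 12 lists of the series. Both lists were taken whole. The study also profiled CRTC2 and NF-κB p65, and treated cells with forskolin (FSK) alone or with TNFα, 1 library for each antibody and treatment. Cells of both groups were the 3T3-L1 line, a fibroblast-like line that can be differentiated into fat-storing cells, after differentiation. The control received no treatment. Since each treatment was a single library, no difference below has a replicate check, no p-value is given, and intervals cover counting error only.

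Acetylation of histone H3 at lysine 27 marks active promoters and enhancers, and it is written by coactivator acetyltransferases that transcription factors recruit. TNFα acts through its receptors to release NF-κB from its inhibitors, and nuclear p65 then binds the promoters and enhancers of chemokine, cytokine and survival genes. In fat cells TNFα is known as an inflammatory signal that opposes insulin action and the adipocyte gene programme.

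The label adipocyte was checked against 10 marker genes. A listed region lay over the start site of 4 of them, Pparg, Lipe, Lpl and Fabp4, in both libraries. The start sites of Adipoq, Plin1, Cebpa, Cidec, Cd36 and Retn, which are also defining adipocyte genes, carried no listed region in either library, whereas 11 of 12 preadipocyte and matrix genes, among them Pdgfra, Col1a1 and Col3a1, did. Of the markers of other cell types, 2 of 8 macrophage genes (Cd68 and Csf1r), 0 of 5 endothelial genes and 1 of 8 muscle and neuron genes (Myog) had a start-site region. Over all 21924 annotated protein-coding genes, 11056 had one in at least 1 of the lists, a share that 4 of 10 lies near. The part of any cell mixture in the results below was not tested.

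The sequences that follow show the p65 sites in loci that were higher with TNFα, since p65 binding is the readout that these loci are set against below. Each is 50 bases of GRCm38 centred on a match to the letters used here for an NF-κB site (GGG, then 2 bases of any kind, then TTTCC), inside a p65 peak of the TNFα library that lay in an H3AcK27 locus at least 1.5-fold higher with TNFα than in control. The first 5 came from the 8 such peaks with the most p65 tags, and the last 3 were nearest to listed inflammatory genes. All lay outside annotated exons. Capitals mark the match, and each sequence is written 5′ to 3′ on the strand that reads GGG first.
Gdnf, chr15:7838589-7838638, + strand: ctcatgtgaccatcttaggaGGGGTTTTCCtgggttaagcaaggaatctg
Snx18, chr13:113547955-113548004, + strand: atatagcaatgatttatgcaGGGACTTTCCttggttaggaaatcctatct
Pid1, chr1:84299945-84299994, + strand: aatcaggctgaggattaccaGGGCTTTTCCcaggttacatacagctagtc
Ets2, chr16:95836216-95836265, - strand: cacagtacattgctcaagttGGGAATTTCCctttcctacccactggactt
Stx8, chr11:68092136-68092185, - strand: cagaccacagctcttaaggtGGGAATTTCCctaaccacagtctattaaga
Ccl2, chr11:82033197-82033246, + strand: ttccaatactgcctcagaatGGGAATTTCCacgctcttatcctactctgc
Csf2, chr11:54226351-54226400, + strand: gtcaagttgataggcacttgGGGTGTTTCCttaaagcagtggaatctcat
Tnfaip3, chr10:19087247-19087296, + strand: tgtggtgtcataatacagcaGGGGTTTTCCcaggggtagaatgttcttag
The gene named is the one with the nearest protein-coding start site, and the site lay at -2.35 kb from that start site for Ccl2 (negative is upstream), at -71.6 kb for Tnfaip3 and at 130 kb for Ets2. The Pid1 and Stx8 sites lay inside those genes, the Ccl2 site lay inside the annotated gene Gm17268, and the others lay in no protein-coding gene. The H3AcK27 level of the locus around each site was 337 normalized tags in control and 700 with TNFα for Gdnf, 57.6 and 101 for Snx18, 228 and 595 for Pid1, 168 and 409 for Stx8, 206 and 542 for Csf2 and 43.1 and 174 for Tnfaip3. Normalized tags are read counts scaled by the authors to 10000000 mapped reads per library.

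The 2 libraries were of like depth and shape. The control library held 27601287 tags and the TNFα library 27966129, and 64.9% and 66.7% of them lay in listed regions. Median region width was 1469 bp in control and 1494 bp with TNFα, and the lists covered 114 Mb and 110 Mb. Of the control regions, 78.4% (95% Wilson interval 78.0 to 78.7) were overlapped by at least 1 bp by a TNFα region, and of the TNFα regions, 82.6% (82.3 to 82.9) by a control region. The 93.4 Mb present in both lists made up 82.1% of the control and 84.7% of the TNFα sequence.

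The regions that were not shared were mostly small ones. In the quintile of control regions with the fewest normalized tags, 36.4% were shared, against 99.8% in the quintile with the most. With TNFα those shares were 46.7% and 99.9%. Promoter regions, defined as touching the span from 1000 bp before to 100 bp after a protein-coding start site, were shared at 96.8% in control and 97.4% with TNFα, and distal regions at 73.5% and 78.5%. Promoters made up 20.9% of control and 21.6% of TNFα regions, and regions covered 25832 and 25846 of 54340 distinct start sites. The plot of shared regions by quintile shows the same order in both lists.

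**Figure D1:**
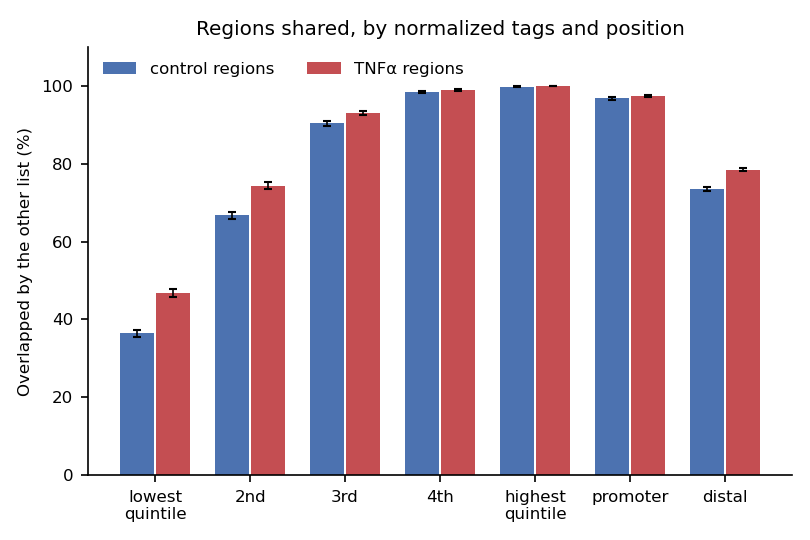
Percent of H3AcK27 regions of each list overlapped by at least 1 bp by the other list (vertical axis), by quintile of normalized tags and for promoter and distal regions, as bars with 95% Wilson intervals as whiskers. Sharing goes from 36.4% of control and 46.7% of TNFα regions in the lowest quintile to 99.8% and 99.9% in the highest.

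Merging overlapping regions of the lists gave 59397 loci, of which 39429 were listed in both libraries, 11313 in control only and 8655 with TNFα only. Loci of a single list were short and weak, with a median length of 500 bp, the smallest width that the caller can give, and a median of 9.42 normalized tags in control only and 9.65 with TNFα only. They lay close to the threshold of 4-fold over input that the authors required. Between 4- and 5-fold over input were 44.3% of the control-only and 45.4% of the TNFα-only loci, against 7.05% of the loci in both lists. Promoters made up 3.12% of control-only and 3.25% of TNFα-only loci. No value is given for a locus in a library that did not list it, so absence from a list is not a measured level of 0.

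The single-list loci with the most tags were largely in segments of very high input. Of the 10 with the most tags with TNFα only, 5 had an input density over 5 times that of the median locus, and of the 10 in control only, 6 did. Those segments lay on chromosomes 10 and 4, and include the TNFα-only loci nearest to Myf5 (1630 normalized tags in 628 bp, input 133 times the median locus), Ptprq and Otogl, and the control-only loci nearest to Fggy (584 tags), Ppp1r12a, Tnfsf15, Myf6 and Frs2. All were between 4.03- and 6.09-fold over input. Outside those segments the TNFα-only loci with the most tags were nearest to Samd4 (237 tags in 4345 bp), Ppp3ca (183), Sav1 (182), Trps1 (170) and Cdc7 (155), and the control-only ones to Atp5g2 (220 tags in 5194 bp), Pgrmc2 (204), Tuba1c (202) and Plac8 (201). The part of input density in these differences was not tested.

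At the 39429 loci in both lists the normalized tags of the regions were summed in each library. The median log2 fold of TNFα over control was 0.01. Of these loci 5481 (13.9%) were at least 1.5-fold higher and 6655 (16.9%) at least 1.5-fold lower with TNFα. The sums depend on how much sequence each list covered. Loci called higher had a median length of 993 bp in control and 1726 bp with TNFα, and loci called lower 1688 bp and 932 bp. Per kb of listed sequence, the median log2 fold was 0.39 for the loci called higher and -0.36 for those called lower.

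The dependence on length was strongest in the most extreme loci. Of the 10 largest folds upward with at least 50 normalized tags, 9 set a 500 bp region against one of several kb, as at the locus -159 kb from the start site of Sstr4, with 6.88 tags in 500 bp in control and 141 tags in 4767 bp with TNFα. Others were nearest to Tasp1, Palld, Ets2, Plcg1, Adtrp, Cdh18, Cd44 and Itgav. The log2 folds of the 10 loci ran from 3.36 to 4.36, and per kb from 0.55 to 1.44. Of these 10 loci, 1, nearest to Ets2, held a p65 peak with TNFα. The 10 largest folds downward were nearest to Adra1d (2 loci, 298 to 10.0 and 198 to 14.3 tags), Mpp7, Sulf2, 1700021F07Rik, Sipa1l3, Haus8, Slc22a15, Prickle1 and Lzts1, with log2 folds of -3.55 to -4.90 on summed tags, and of -0.45 to -1.87 per kb, and none held a p65 peak.

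A set chosen after the values were seen therefore kept 23848 loci whose covered lengths differed by less than 2-fold and whose higher library had at least 50 normalized tags. In this set of like width, 2290 loci (9.60%) were at least 1.5-fold higher and 2471 (10.4%) at least 1.5-fold lower with TNFα, and 528 (2.21%) and 648 (2.72%) passed 2-fold. The largest folds upward included the start-site locus of Sod2, the mitochondrial superoxide dismutase, with 262 tags in control and 914 with TNFα, and a locus at -70.9 kb from the start site of Tnfaip3. They also included the start-site locus of Mrpl4 (14.5 and 80.1 tags) and a locus at Tyk2, a Janus kinase (18.8 and 73.3 tags). The largest folds downward were nearest to Tmem178 (125 and 25.7 tags), Clec3b (58.7 and 13.2), Rasl11a (84.1 and 21.5) and N6amt1 (118 and 30.4), with the promoter of Mprip at 303 and 87.2. Promoters were 28.7% (26.9 to 30.6) of the loci higher and 10.6% (9.41 to 11.8) of those lower in this set, against 39.3% of the set as a whole.

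For each protein-coding gene the locus over a start site was taken. Of 11056 genes with such a locus, 10835 had it in both lists, 108 with TNFα only and 113 in control only. The median log2 fold over the 10835 genes was 0.13, so that start sites as a group sat slightly above the loci as a whole. At least 1.5-fold higher with TNFα were 785 of them (7.25%), and at least 1.5-fold lower 351 (3.24%). Gene lists are read against these shares and against the 0.13 shift.

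The gene lists and their members were chosen with earlier results of these data known, so the shares below do not test lists fixed in advance. The clearest pattern was in the 81 genes of 5 lists of inflammatory and TNF pathway genes. Of the 58 with a start-site locus in both lists, 25 (43.1%) were at least 1.5-fold higher with TNFα, 0 were at least 1.5-fold lower, and 57 were above 0 on the log2 scale, with a median of 0.54. After centring on the median of all genes 19 were at least 1.5-fold higher and 0 lower, against 4.01% and 5.18% of all genes. At 2-fold 12 were higher and 0 lower, against 1.29% and 0.840% of all genes, and on tags per kb 10 were higher and 0 lower, against 2.97% and 0.886% of all genes. These loci were longer than most, with a median of 6.59 kb in control and 7.33 kb with TNFα against 2.70 and 2.75 kb over all genes, and 48 of the 58 (82.8%) covered more sequence with TNFα, against 54.2% of all genes. The plot of all start sites shows these genes mostly above the diagonal.

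**Figure D2:**
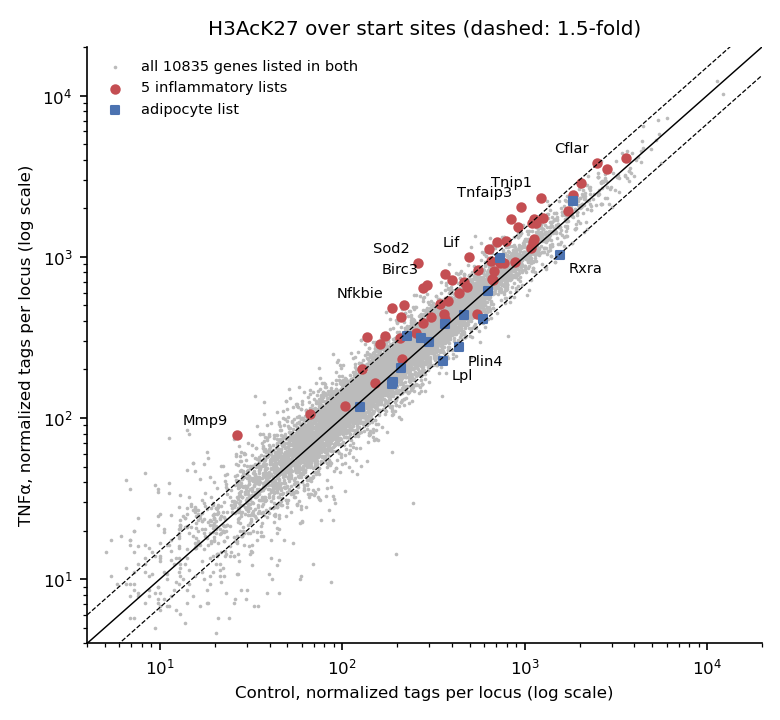
Normalized H3AcK27 tags at start-site loci in control (horizontal) and with TNFα (vertical), both on log scales, 1 point a gene, for 10835 genes listed in both libraries (grey), the 5 inflammatory lists (red) and the adipocyte list (blue squares); the solid line is equality and the dashed lines are 1.5-fold. Of the red points 25 of 58 lie on or above the upper dashed line, and 3 of 16 blue squares on or below the lower one.

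Among NF-κB subunits and their inhibitors, 15 of 17 genes had a start-site locus in both lists, 7 were at least 1.5-fold higher, 0 lower, and the median log2 fold was 0.58. Nfkbie, the gene of the inhibitor IκBε, had 188 normalized tags in control and 479 with TNFα, a log2 fold of 1.35 (95% counting interval 1.20 to 1.49). Nfkbib, the gene of IκBβ, had 137 and 318, at a locus shared with Sirt2. Tnfaip3, which encodes the deubiquitinase A20 that ends NF-κB signalling, had 952 and 2024, a log2 fold of 1.09 (1.02 to 1.15). Its partner Tnip1 had 1226 and 2321.
The subunit gene Nfkb2 had 367 tags in control and 782 with TNFα, Relb 172 and 322, and Rela, which encodes p65 itself, 208 and 315. For the last 2 the difference lay in length and not in density. The Relb region was 2.56 kb in control and 4.77 kb with TNFα with a log2 fold per kb of 0.00, and Rela went from 2.39 to 3.82 kb with -0.08 per kb. Nfkbia, the classical inhibitor gene, had 1154 and 1622 tags, Nfkb1 1094 and 1623 and Rel 463 and 693, all under 1.5-fold. Nfkbid and Tnip3 had no start-site locus.

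Among chemokines, 9 of 17 genes had a start-site locus in both lists, 3 of them at least 1.5-fold higher and 0 lower, with a median log2 fold of 0.40. After centring on the median of all genes 1 was higher, Cxcl10, and on tags per kb 1, Ccl2. Ccl2, the monocyte attractant, had 1124 tags in control and 1723 with TNFα over 11.7 kb in each library, at a locus shared with Gm17268. Cxcl10, a T-cell attractant, had 161 and 289, and Cx3cl1 128 and 202. Cxcl5 and Cxcl1, neutrophil attractants, had 1836 and 2418 and 343 and 511 tags, under 1.5-fold, and the Cxcl1 locus was 3.80 kb in control and 7.60 kb with TNFα, so that its density was lower with TNFα (log2 fold per kb -0.43). Cxcl12, a constitutive stromal chemokine, had 551 in control and 439 with TNFα.
Some chemokine genes without a start-site locus in either list had listed regions nearby with TNFα only. Cxcl2 had 3 loci with 67.2 tags in all, Cxcl3 2 loci with 98.7, Cxcl9 1 locus with 60.4 and Ccl20 1 locus with 8.94. None of these genes had a nearest locus in the control list. The smallest of the Cxcl2 loci held 6.79 tags and the smaller of the Cxcl3 loci 8.94. Of all loci, 14.6% were with TNFα only and 19.0% in control only. Ccl11, an eosinophil attractant also without a start-site locus, had 4 nearest loci in both lists with sums of 1022 and 909, of which 3 were lower with TNFα, 1 of them by at least 1.5-fold. Ccl5 had a start-site locus of 8.94 tags and 500 bp with TNFα only, at the caller's smallest size.

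Among cytokines and growth factors, 8 of 15 had a start-site locus in both lists, and 2 were at least 1.5-fold higher and 0 lower, with a median of 0.29, and after centring 1 was higher, Lif. Lif, a cytokine of the interleukin-6 family, had 493 tags in control and 997 with TNFα, and Hbegf, an epidermal growth factor receptor ligand, 67.0 and 106. Il6 had 552 and 823, under 1.5-fold. Over all 9 loci nearest to Il6 the sums were 1275 and 2331, and over the 7 loci nearest to Csf2, which had no start-site locus, 561 and 1574. Others without a start-site locus went both ways. Sums were 132 and 268 for Il1a, 85.1 and 125 for Csf3, 64.0 and 96.2 for Il33 and 1595 and 848 for Tnfsf15. The Tnfsf15 control sum included the control-only locus named above, in the high-input segment of chromosome 4. The Tnfsf15 locus in both lists was lower with TNFα by less than 1.5-fold. The part of input density in the Tnfsf15 sums was not tested. The single locus nearest to Il1b was in control only, at 6.52 tags. Tnf itself had no locus nearest to it in either list.

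Adhesion, acute-phase and matrix genes had 7 of 10 listed members at least 1.5-fold higher and 0 lower, with a median of 0.78. Sod2 was the largest, at 262 tags in control and 914 with TNFα, a log2 fold of 1.80 (1.69 to 1.92) and 1.04 per kb. Mmp9, a matrix-degrading gelatinase, had 26.4 and 78.3, log2 fold 1.57 (1.19 to 1.95). Ptgs2, the inducible cyclooxygenase, had 210 and 424 and Ptges, the prostaglandin E synthase, 918 and 1538. The acute-phase genes Lcn2 and Saa3 had 636 and 1121, and 401 and 722, each at a locus shared with a neighbour. Vcam1, an endothelial and stromal adhesion receptor, had 656 and 936, and Icam1 had no start-site locus.

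All 17 genes of TNF receptor signalling and survival had a start-site locus, 16 of them in both lists, with 6 at least 1.5-fold higher, 0 lower and a median of 0.45. The inhibitor of apoptosis genes Birc2 and Birc3 lie next to each other on chromosome 9 with separate loci, and had 838 and 1718 tags, and 291 and 672 tags. Their covered lengths hardly differed between libraries, and the log2 fold per kb was 1.01 at both. Traf1, a TNF receptor adaptor, had 277 and 640, Fas, a death receptor, 219 and 502, Cflar, which blocks caspase-8, 2496 and 3796, and Irf1 705 and 1229. The Irf1 locus, shared with Gm17334, was 9.68 kb in control and 15.6 kb with TNFα. Its log2 fold per kb was 0.11.
The start site of Traf3, another adaptor, had no listed region in control and 146 tags in 3.93 kb with TNFα. A listed region was there with FSK (60.0 tags) and with FSK and TNFα (80.8 tags). The TNF receptor gene Tnfrsf1a had 885 and 931 tags and Tnfrsf1b 435 and 600, a log2 fold of 0.46 (0.36 to 0.57). Tradd had 104 and 118 and Ripk1 151 and 165.

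Immediate early transcription factor genes had 24 of 25 start-site loci in both lists, 2 at least 1.5-fold higher and 0 lower (8.33% higher, against 7.25% of all genes), with a median of 0.26. The 2 were Maff, at 114 and 237 tags, and Egr1, at 190 and 308. Fos had 152 and 160, Fosb 128 and 109, Junb 2515 and 3137 and Myc 1300 and 1666. Jun had 12223 and 10269, in the high-input segment of chromosome 4.

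In the adipocyte list 0 of 16 genes were at least 1.5-fold higher, near the 7.25% of all genes. The preadipocyte and matrix list also had 0 of 11. Of the 16 of 26 adipocyte identity and lipid storage genes with a start-site locus in both lists, 3 were at least 1.5-fold lower (18.8%, against 3.24% of all genes), and the median log2 fold was -0.06. Lpl, the lipoprotein lipase that takes up circulating fat, had 359 tags in control and 226 with TNFα in loci of 3.79 and 3.80 kb, a log2 fold of -0.67 (-0.81 to -0.52). Plin4, a lipid droplet coat protein gene, had 438 and 276 and Rxra, the partner receptor of PPARγ, 1566 and 1032. Lipe, the hormone-sensitive lipase, had 593 and 409, past 1.5-fold only after centring on the median of all genes. On tags per kb only Lpl passed 1.5-fold. Fasn (626 and 616), Acly (300 and 298) and Scd1 (210 and 205), lipid synthesis genes, were nearly equal, and Cebpb (1843 and 2207) and Cebpd (729 and 976), early factors of the adipocyte programme, were slightly higher with TNFα.

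Loci were also summed over all that were nearest to a gene. Of the 16 adipocyte genes with a start-site locus in both lists, 3 had a sum at least 1.5-fold lower with TNFα and 0 at least 1.5-fold higher, with a median log2 fold of -0.09, against 5.18% and 6.52% of all genes with a start-site locus. Pparg, the master regulator of fat cell differentiation, had 191 and 167 tags at its start-site locus, and 21 loci were nearest to it. All 11 of these in both lists were lower with TNFα, 4 of them by at least 1.5-fold, 7 were in control only and 3 with TNFα only, and the sums were 1879 and 1269. Of the 22 loci nearest to Rxra, 11 of 12 in both lists were lower, 6 by at least 1.5-fold, 8 were in control only and 2 with TNFα only, with sums of 5196 and 3327. Over all loci in both lists 16.9% were at least 1.5-fold lower. Of all loci, 19.0% were in control only and 14.6% with TNFα only. The loci around Pparg and Rxra were chosen after their values were seen. The 5 loci nearest to Lpl summed to 575 and 321. Klf15, a glucocorticoid-induced adipogenic factor with no start-site locus, had 149 and 54.7 over its 3 loci, and the 2 loci nearest to Adipoq had 268 and 234. Sums that were higher with TNFα stood beside these. Cebpd had 3581 and 4901, Cebpb 7768 and 9665 and Acaca, which makes malonyl-CoA for fatty acid synthesis, 342 and 459. Of the list's other genes without a start-site locus, Cidea, a lipid droplet protein gene, had 36.2 and 83.6, Cd36, a fatty acid receptor gene, 29.7 and 42.5 and Cidec 12 and 13.9, Cebpa had 49.3 and 44.4, and the single locus nearest to Lep was listed with TNFα only, at 8.22 tags.

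Of the insulin and cAMP signalling genes, 15 of 22 had a start-site locus in both lists, with 1 at least 1.5-fold higher, 1 at least 1.5-fold lower and a median of 0.04. These 6.67% higher are no more than the 7.25% of all genes. The higher one was Crtc2, the gene of the CREB coactivator CRTC2, at 266 and 427 tags, and the lower one Irs1, the insulin receptor substrate, at 242 and 152. After centring 0 were higher and 2 lower, Irs1 and Akt2, an insulin-responsive kinase gene with 670 and 479. Pde3b, the phosphodiesterase through which insulin restrains lipolysis, had no start-site locus, and its 4 nearest loci summed to 262 in control and 97.7 with TNFα. Preadipocyte and matrix genes had 11 of 12 loci in both lists with 0 past 1.5-fold either way and a median of 0.03, and ribosomal protein genes had 22 of 22 with 1 higher (Rps2, 201 and 340 tags), 0 lower and a median of 0.17, close to that of all genes. The plot of listed genes sets each pair of values side by side.

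**Figure D3:**
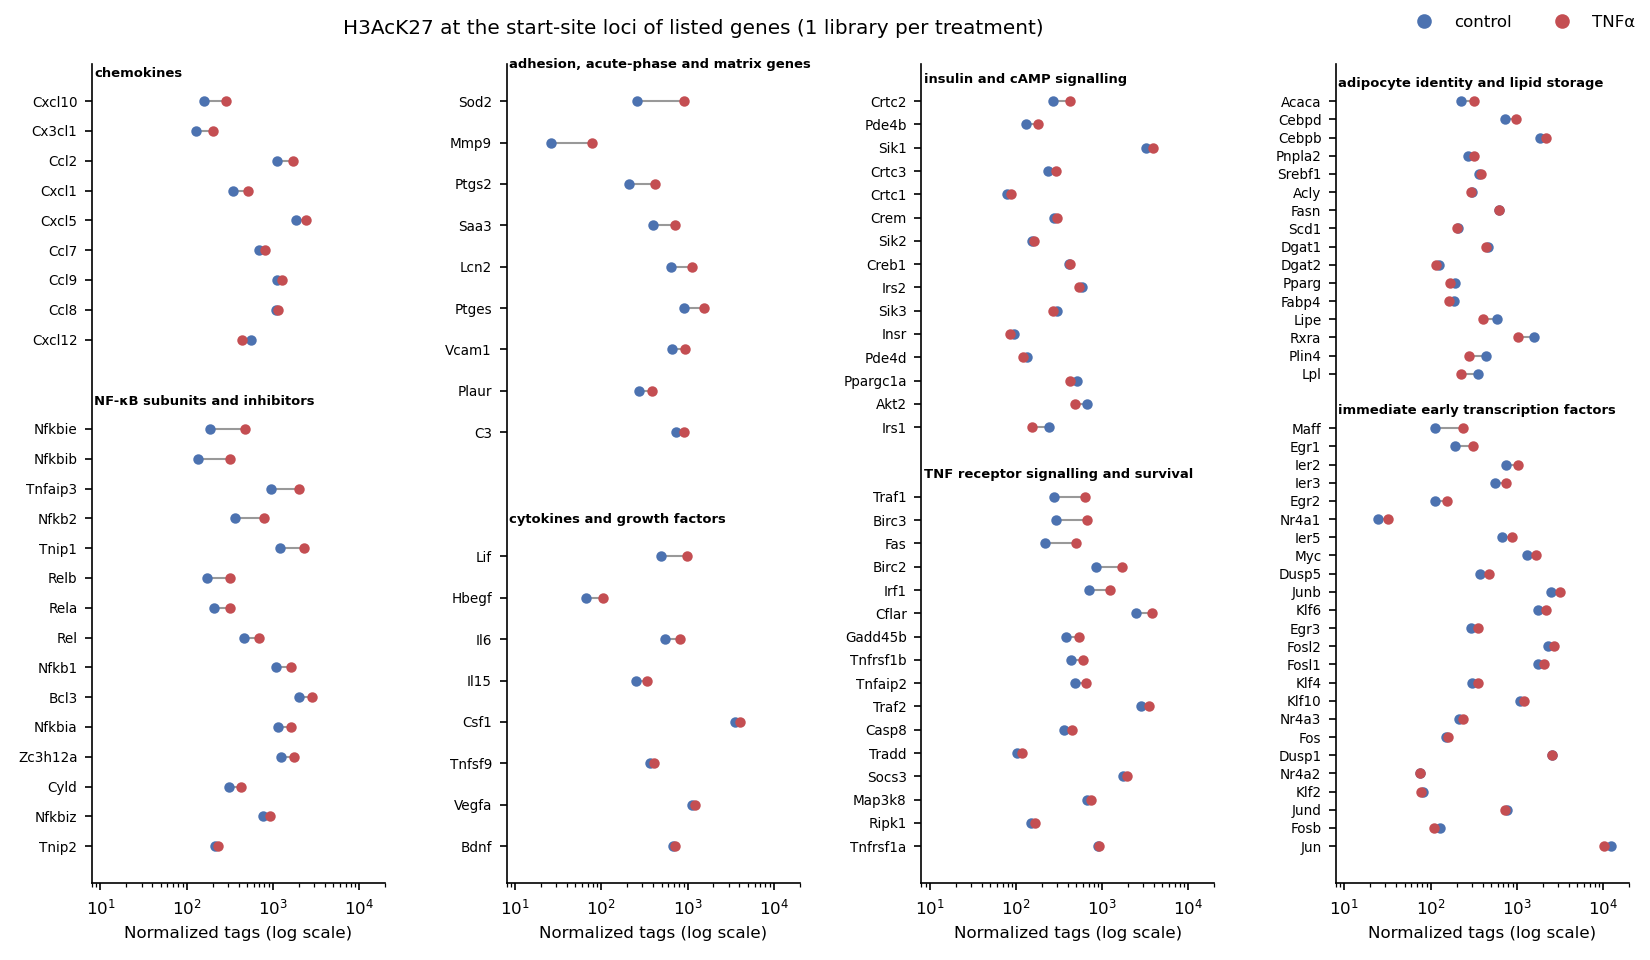
Normalized H3AcK27 tags (log scale) at the start-site loci of genes listed in both libraries in 8 lists, control in blue and TNFα in red joined by a grey line, 1 library per treatment, ordered by log2 fold within a list. Red lies to the right for all 15 NF-κB genes, and to the left for Lpl, Plin4 and Rxra in the adipocyte list.

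The neighbourhoods described next were chosen after their values were seen. Of 23 loci nearest to Tnfaip3, from -153 kb to 47.1 kb of its start site, all 15 in both lists were higher with TNFα, 13 of them by at least 1.5-fold, 7 were with TNFα only and 1 in control only. Over all loci in both lists 13.9% were at least 1.5-fold higher, and of all loci 14.6% were with TNFα only and 19.0% in control only. The Tnfaip3 sums were 1833 and 4458 normalized tags, and covered lengths 35.2 kb and 67.8 kb. The distal loci included one at -111 kb with 67.4 and 232 tags, one at -136 kb with 115 and 320, and one at -30.1 kb with 248 and 592, whose densities were higher too (log2 fold per kb 1.26, 0.85 and 0.93). Over the 15 loci in both lists the log2 fold per kb ran from -0.68 to 1.26, and at the start-site locus it was 0.34. A p65 peak with TNFα lay in 4 of the 23 loci, among them the one at -70.9 kb whose site is printed above.
Other genes varied. All 3 loci nearest to Birc3 in both lists were at least 1.5-fold higher and 5 more were with TNFα only. Of 16 loci nearest to Lif, 8 were with TNFα only, at 6.44 to 37.5 tags each, and a locus of 22.0 kb in control and 23.6 kb with TNFα, at 34.3 kb, had 1979 and 3155 tags. The pair of loci nearest to Ccl2 had 1461 and 2616 tags (at -21.1 kb) and 1124 and 1723 tags (at the start site). Of the 6 loci nearest to Cxcl1, 2 were at least 1.5-fold higher, among them the one at -11.3 kb with 1136 and 2011 tags, and 1 was at least 1.5-fold lower. Of the 14 nearest to Nfkb1, 10 were in both lists with 2 at least 1.5-fold higher and 0 lower, 1 was with TNFα only and 3 were in control only.

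**Figure D4:**
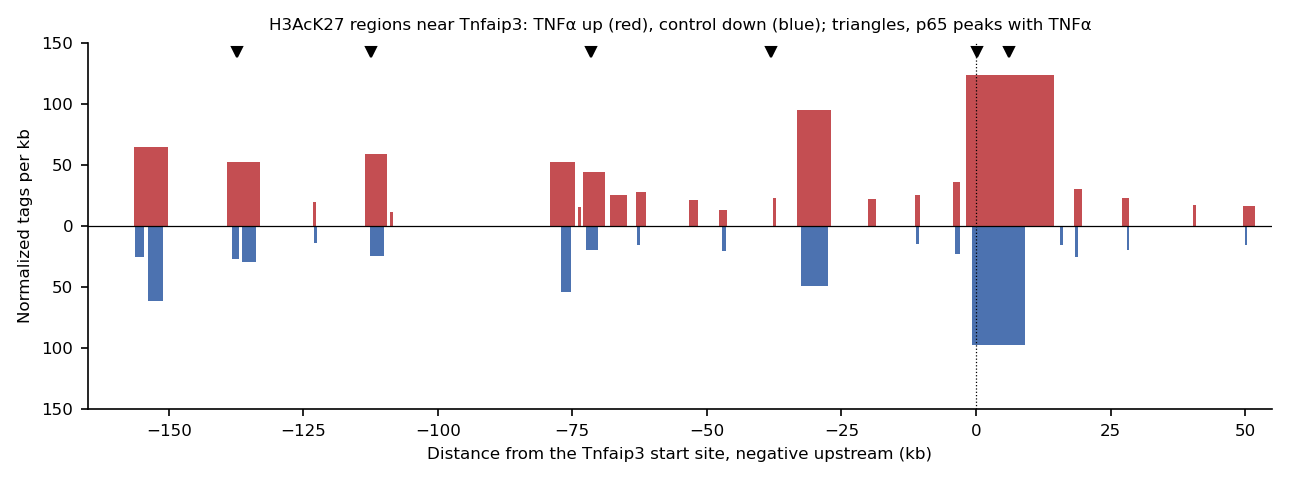
H3AcK27 regions around the Tnfaip3 start site (horizontal axis, kb, negative upstream), drawn to scale with height as normalized tags per kb, TNFα upward in red and control downward in blue, p65 peaks of the TNFα library as triangles and the start site as a dotted line. The start-site region reaches 123 tags per kb over 16.4 kb with TNFα and 97.4 over 9.77 kb in control.

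The p65 and CRTC2 lists were not used in choosing or calling these loci. Of 2404 p65 peaks with TNFα, 37.7% lay in a control H3AcK27 region and 39.6% in a TNFα region. For the 271 that also overlapped a p65 peak of the library with FSK and TNFα, the shares were 87.5% and 93.7%, so most p65 sites seen in both libraries lay in a region that was also listed in untreated cells. At the 876 loci in both lists that held a p65 peak with TNFα, 242 (27.6%) were at least 1.5-fold higher and 33 (3.77%) at least 1.5-fold lower with TNFα, against 13.9% and 16.9% of all loci. At the 235 loci with a p65 peak seen in both libraries, 113 (48.1%) were higher and 0 lower, with a median log2 fold of 0.56 on summed tags and 0.37 per kb.

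Longer loci can hold more peaks, and the part of locus length in these shares was not tested. The shares are also given in the set of like width, which matches lengths between the libraries at each locus and not between classes. Its loci higher had median lengths of 2110 bp in control and 2816 bp with TNFα, and its loci lower 2710 and 1954 bp. There a p65 peak with TNFα lay in 8.43% (7.36 to 9.64) of the loci higher with TNFα, 2.92% (2.69 to 3.17) of those between and 0.769% (0.493 to 1.20) of those lower. A p65 peak seen in both libraries lay in 4.15% (3.41 to 5.04), 0.613% (0.512 to 0.734) and 0 of 2471 (up to 0.155%). The control p65 list had few peaks, with 44 of the 59397 loci holding one. CRTC2 followed another order. A CRTC2 peak with TNFα lay in 33.8% (31.8 to 35.7) of the loci higher, 48.1% (47.4 to 48.8) of those between and 9.75% (8.65 to 11) of those lower, and at the 10945 loci in both lists that held one, 8.61% were at least 1.5-fold higher and 3.33% lower, with a median log2 fold of 0.12. So p65 peaks were most frequent at loci with more H3AcK27 after TNFα, CRTC2 peaks at loci that stayed between, and both were least frequent at loci with less. The classes also differed in position. Promoters were 28.7% of the loci higher and 10.6% of those lower, against 39.3% of the whole like-width set. The part of promoter position in the p65 and CRTC2 shares was not tested.
At start sites, 294 of the 10835 genes (2.71%) had a p65 peak with TNFα in the locus. Of those, 47 (16%) were at least 1.5-fold higher, against 7.25% of all genes, and their median log2 fold was 0.25, against 0.13. These medians are over the 294 genes and over all genes. In the 5 inflammatory lists 22 of 58 genes (37.9%) had one, 10 of the 25 called higher among them, so 15 genes called higher, such as Birc3, Nfkbie, Traf1 and Lif, had none in that locus.

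The letters of the locus gave a similar order. In 500 bp at the middle of each locus, on either strand, the NF-κB letters were present in 2.82% (2.69 to 2.96) of all loci. They were in 6.64% (5.69 to 7.73) of the like-width loci higher with TNFα, 2.80% (2.57 to 3.04) of those between and 1.46% (1.05 to 2.01) of those lower. The AP1 letters TGANTCA were in 29.6% (27.7 to 31.5), 23.6% (23.0 to 24.2) and 28.2% (26.4 to 30.0), and the C/EBP letters TTGCNNAA in 23.6% (21.9 to 25.4), 19.9% (19.3 to 20.5) and 23.4% (21.8 to 25.1), higher in both directions than between. The CRE letters TGACG were in 19.8% (18.2 to 21.5), 22.7% (22.1 to 23.3) and 13.3% (12 to 14.7), and in 16.7% of all loci. Within the p65 peaks themselves, each 162 bp wide, the NF-κB letters were in 24.7% (19.9 to 30.3) of 259 peaks in loci higher with TNFα, 13.2% (10.8 to 16.1) of 635 in loci between, 1 of 34 in loci lower, and 1.92% (1.32 to 2.78) of 1408 peaks outside any H3AcK27 locus. In the peaks in loci higher, between and outside, the AP1 letters were in 23.2% (18.4 to 28.7), 17.3% (14.6 to 20.5) and 6.68% (5.49 to 8.10), the C/EBP letters in 21.2% (16.7 to 26.6), 10.7% (8.54 to 13.4) and 8.03% (6.72 to 9.56), and the CRE letters in 9.65% (6.62 to 13.9), 7.56% (5.75 to 9.88) and 3.69% (2.83 to 4.81). Of the 34 peaks in loci lower, 2 held the AP1 letters and 1 the CRE letters. The C/EBP letters were in 7 of the 34 (20.6%, 10.3 to 36.8), a share like that in loci higher.

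**Figure D5:**
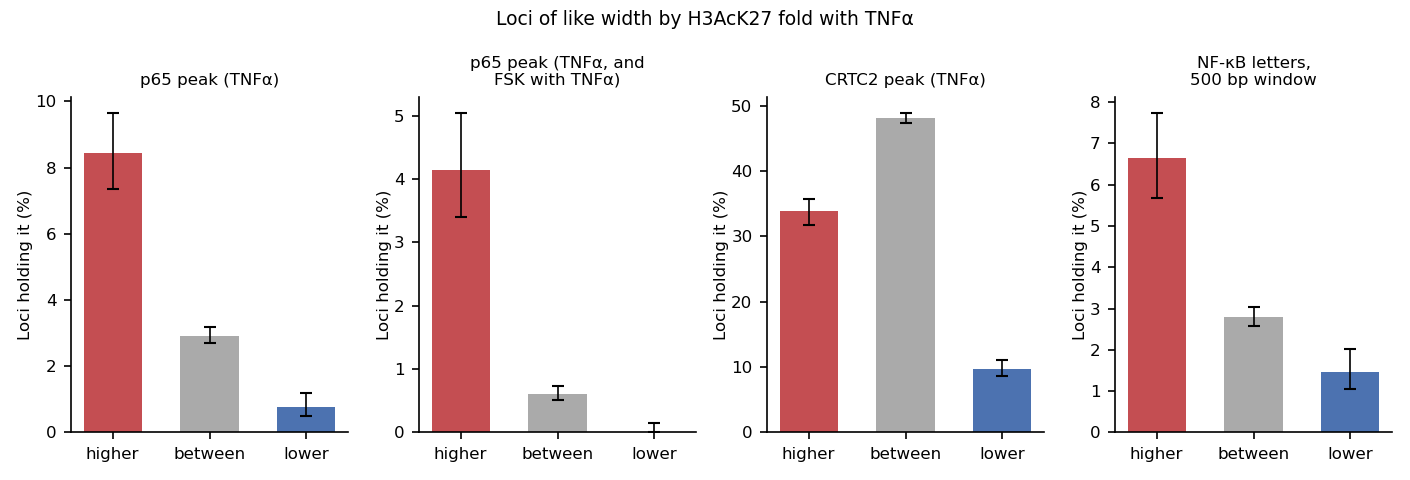
Percent of like-width loci that hold a p65 peak with TNFα, a p65 peak seen both with TNFα and with FSK and TNFα, a CRTC2 peak with TNFα, and the NF-κB letters in the central 500 bp (vertical axes, each panel on its own scale), for 2290 loci higher, 19087 between and 2471 lower with TNFα, with 95% Wilson intervals as whiskers. The p65 and NF-κB panels fall from higher to lower, while the CRTC2 panel peaks at 48.1% in loci between.

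The libraries with FSK, and with FSK and TNFα, gave a second reading of TNFα at the same loci with no ChIP or input library in common with the first. The FSK library was the shallowest H3AcK27 library, with 9832884 tags against 25729060 with FSK and TNFα. Over the 26572 loci in both of these lists, 16.8% were at least 1.5-fold higher with FSK and TNFα than with FSK and 17.0% at least 1.5-fold lower. Of the 1847 like-width loci called higher with TNFα alone that could be compared, 50.6% were at least 1.5-fold higher and 3.90% lower, with a median log2 fold of 0.59. Of 1755 called lower, 6.32% were higher and 46.6% lower, with a median of -0.54, and of the 17001 between, 13.4% were higher and 9.90% lower, with a median of 0.09. Loci of a single list recurred less. Over all 59397 loci, 55.7% had a listed region with FSK and TNFα and 52.5% one with FSK. A region with FSK and TNFα was listed at 24.7% (23.9 to 25.7) of the TNFα-only loci and a region with FSK at 14.9% (14.2 to 15.7), while 17.7% and 16.7% of the control-only loci had one.

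At start sites the NF-κB list had 10 of 15 genes at least 1.5-fold higher with FSK and TNFα than with FSK and 0 lower, and the TNF receptor and survival list 9 of 17 and 0, against 13.8% and 2.61% of all genes. The adhesion list had 5 of 10 and 0, the chemokines 3 of 9 and 1 lower, and the cytokines 0 of 8 and 1 lower with a median log2 fold of 0.09, against 0.18 over all genes. Sod2 had 346 tags with FSK and 1068 with FSK and TNFα, Tnfaip3 659 and 1574, Tnip1 731 and 1978 and Birc3 513 and 995. The neutrophil chemokine genes had nearly equal values, with Cxcl1 at 437 and 416 and Cxcl5 at 2544 and 2436, as was Il6 at 1042 and 939. Of the genes lower with TNFα alone, Lpl had 143 with FSK and 131 with FSK and TNFα, Rxra 901 and 836, Plin4 182 and 150 and Irs1 118 and 112, none of them past 1.5-fold. In the adipocyte list 1 gene of 16 was past it in either direction, Pparg, with 128 and 58.7 tags. Whether the folds of these genes differ between the pairs was not tested.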

How the data were processed

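ChIP-seq region lists were deposited for each library. Per the submitters' processing notes, reads were aligned with STAR to mm10 and regions called with HOMER, versions not given in the sources used here. Per the file headers, the authors called H3AcK27 regions in histone style, with 500 bp windows stitched into regions of variable length, at least 4-fold over input and a Poisson p over input of 0.0001, against the untreated input for control and TNFα and the FSK input for the FSK pair. The deposited Normalized Tag Count is a signal scaled to 10000000 tags, the deposited fold change is a linear ratio over input, and the deposited findPeaks score, used only to rank regions, is the caller's score. Replicates were not pooled: each list is 1 library. No region ran past the ends of the 21 GRCm38 chromosomes, the assembly that mm10 names.

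Regions of the lists overlapping by at least 1 bp were merged to loci, and tags, covered lengths and tags per kb summed in each library. A locus in both lists was called at 1.5-fold. Loci were named by the nearest protein-coding start site (GENCODE M21), and a promoter ran from 1000 bp before to 100 bp after a start site. The gene lists and members, and the rule for named loci (list genes, the 10 largest folds each way with at least 50 normalized tags, and the 10 single-list loci with most tags), were chosen with earlier results of these data known. Loci of like width, and those around single genes such as Tnfaip3, Pparg and Ripk2, were chosen after their values were seen. Motif letters were searched in GRCm38.p6 sequence with pysam 0.24.0. Scripts used Python 3.11.15, pandas 2.3.3, numpy 2.4.6 and scipy 1.17.1, and were tested on simulated data. Counting intervals of log2 folds used tag counts recovered from the scaled values and library totals, and treat tags as independent. The alternatives were another overlap, a stricter input threshold, equal list sizes, autosomes, a wider promoter, 2-fold, centring, tags per kb, single-region loci, sums over nearest loci and a 200 bp motif window. Values of 2 genes counted in the totals are not reported here. Cxcl11 has no protein-coding start site in the annotation. The CRTC2 and p65 lists with FSK alone, the CRTC2 list with FSK and TNFα, and the authors' columns of p-values over input were not used.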

Additional observations from a re-analysis of the deposited data

How the results depend on the processing

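No paired analysis was possible because each treatment is 1 library. With an overlap of at least 0.5 of the shorter region, 77.3% of control and 81.5% of TNFα regions were shared. At 8-fold over input the lists held 18836 and 18698 regions, of which 74.3% and 74.6% were shared and 40.3% and 42.5% were at promoters. With the 25000 best-scored regions of each list, 65% and 65.1% were shared. A promoter of 2500 bp to either side took in 24.9% and 25.7%. The loci higher and lower numbered 2312 and 3011 at 2-fold, 1737 and 1697 on tags per kb, 2777 and 3108 with at least 50 normalized tags, and 2290 and 2471 in the like-width set. Tags per kb thus turned the excess of lower loci into an even split. Of the inflammatory genes 12 were higher at 2-fold and 10 on tags per kb, and of the adipocyte genes 0 were lower at 2-fold and 1 on tags per kb. Of the list genes called at 1.5-fold, Rela changed direction on tags per kb (-0.08), and so did Cxcl1 (-0.43), Nfkbia (-0.11) and Cyld (-0.08) among those under it. With p65 peaks held to 8-fold over input, 3.47% of loci higher and 0.346% of those lower had one. In 200 bp the NF-κB letters were in 2.46% of loci higher and 0.601% of those lower. Of 598 recomputed values 471 moved by less than the limits set for them (1.5 times for counts, the 95% interval for shares, the side of 1.5-fold for single genes), 126 moved by more and 1 called value changed direction. The like-width, high-input and gene-level tags-per-kb alternatives were chosen after seeing the data. Loci under about 10 tags sit at the caller's threshold, so depth limits what their absence from a list can show.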

Other observations

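Start-site loci of like width outside the gene lists gave further named genes, chosen after their values were seen. Ripk2, the kinase that links NOD receptors to NF-κB, had 533 normalized tags in control and 1341 with TNFα (log2 fold 1.33), and its 10 nearest loci summed to 824 and 2015, with 5 of the 6 in both lists at least 1.5-fold higher and 4 listed with TNFα only. The 4 Ripk2 loci listed with TNFα only held 7.51 to 19.7 tags each. Over all loci in both lists 13.9% were at least 1.5-fold higher, and of all loci 14.6% were with TNFα only. Ccl17, a T-cell chemokine outside the chemokine list, had 385 and 907. Camp, which encodes the antimicrobial cathelicidin, had 18.1 and 61.1, Jpt2 89.5 and 251 and Mfhas1 173 and 457.

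In the other direction, Slc27a1, a fatty acid transporter, had 90.9 tags in control and 29.6 with TNFα (log2 fold -1.62), and Igf1, the growth factor, 60.1 and 22.9. Map2k6, a kinase that activates p38, had 89.9 and 31.5 at its start site, while a distal locus nearest to the same gene, at 146 kb, had 14.9 and 57.6. The matrix genes Spon2 and Tgfbi had 354 and 137, and 508 and 240, and Car5b, a mitochondrial carbonic anhydrase, 121 and 44.7. Each value is 1 library, with no replicate check.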
